A study of Homo sapiens with 12 samples.

Results

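The DNA replication machinery was followed here as 53 genes, picked by their symbols from the 25343 genes of the deposited count table because their products license origins, unwind or copy DNA, load the sliding clamp, package new DNA or supply its nucleotides. The members and the other gene lists were chosen with earlier results of these data known. All 53 members passed the filter on low counts that left 14199 genes for testing. The libraries came from SW48, a colorectal cancer cell line, and OVK18, a line from an ovarian cancer, both known for microsatellite instability. Cells of all 6 groups expressed Cas9, and all were harvested 72 h after transduction with 1 guide RNA. Within each line the guide was sgWRN2 or sgWRN3, which target the RecQ helicase gene WRN, or sgCh2-2, a negative control directed at intergenic DNA on chromosome 2. Each of the groups SW48 sgWRN2, SW48 sgWRN3, SW48 sgCh2-2, OVK18 sgWRN2, OVK18 sgWRN3 and OVK18 sgCh2-2 had 2 libraries, labelled A and B. The labels do not say whether A and B were separate cultures, nor whether the Cas9 cells were 1 clone, so p-values measure only the spread between these libraries, which may be technical.

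Total counts ran from 15423162 to 32581625 per library, and no member had fewer than 162 counts in any library. WRN, the targeted gene, had 37.2 and 34.1 CPM (counts scaled to a common library size) in SW48 sgWRN2, 42.3 and 56.9 CPM in SW48 sgWRN3, and 91.2 and 112 CPM in SW48 sgCh2-2 libraries. In OVK18, WRN had 22.0 and 21.0 CPM with sgWRN2, 22.2 and 23.0 CPM with sgWRN3, and 32.0 and 39.8 CPM with sgCh2-2, so every WRN-guide library of both lines lay below its controls. SW48 libraries held all 5 epithelial markers of the list, EPCAM among them (562 to 682 CPM). Of 6 intestinal markers, CDX2 (68.0 to 104 CPM) and HNF4A (58.1 to 64.6 CPM) were the highest in SW48, VIL1 ran from 1.27 to 2.16 CPM and CDX1 was at 0. In OVK18 the same 5 epithelial markers were low but not all absent. EPCAM did not exceed 0.698 CPM, CDH1 0.175 CPM and KRT19 0.155 CPM, while KRT8 ran from 1.32 to 2.63 CPM and KRT18 from 9.94 to 14.8 CPM. Of 7 ovarian markers, WT1 ran from 0.653 to 1.05 CPM in OVK18 and PAX8 was at 0 in 5 of 6 libraries. The other 5 did not exceed 0.0929 CPM there. PAX8 (3.94 to 6.21 CPM) and MSLN (34.4 to 48.0 CPM), both on the ovarian list, were instead present in SW48. Of 7 fibroblast markers, COL3A1 (383 to 455 CPM) and PDGFRA (21.2 to 24.3 CPM) were present in OVK18 and the other 5 did not exceed 2.74 CPM there. Of 7 leukocyte and endothelial markers, CD3E and PECAM1 were at 0 in all 12 libraries, CD68 ran from 7.37 to 10.1 CPM in SW48 and from 3.84 to 6.14 CPM in OVK18, and PTPRC from 2.27 to 4.18 CPM in SW48.

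Replication is prepared in G1, when the origin recognition complex (ORC), CDC6 and CDT1 load the MCM2-7 helicase onto DNA. The kinases CDC7-DBF4 and cyclin E-CDK2 then help to turn the loaded helicase into the active CMG complex (CDC45, MCM2-7 and GINS), and polymerases alpha, delta and epsilon copy the strands behind it with PCNA, its loader RFC, the single-strand binding protein RPA and DNA ligase. Many of these genes are known targets of E2F transcription factors, which are held in check by the RB family, and p53 can lower them indirectly by raising the CDK inhibitor CDKN1A.

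The start-site sequence was compared between members because many of these genes are known E2F targets and the rule that chose the list used no sequence. RefSeq windows of build GRCh38.p14, each spanning 250 bases before to 50 bases after a gene's start, were matched by symbol for 46 of the 53 members. An E2F motif (TTTCCCGC, TTTCGCGC, TTTGCCGC or TTTGGCGC, searched on both strands) was found in 19 of the 46 member windows (41.3%), against 540 of 10309 windows of tested genes (5.24%) and 908 of all 27305 windows (3.33%). CCAAT, on either strand, was found in 24 of 46 member windows (52.2%), against 36.6% of the windows of tested genes. The cell cycle homology motif TTTGAA was found in 2 of 46 (4.35%), against 9.58% of the windows of tested genes. Of the 25 E2F matches in members, 17 began between 60 bases before and 10 bases after the start, in 16 genes. That span was not set in the plan, and the same share was not computed for other tested genes. Positions rest on 1 window per gene. The last 30 bases of the window were found in a transcript of the gene for 41 of the 46 members. E2F matches overlapped each other in 2 member windows, where each match was counted, and an E2F match overlapped a CCAAT match in 1. Each of 4 role groups is represented here by the member with the smallest p-value over both WRN guides in SW48, leaving out members without a window, and each stretch covers 160 bases before to 30 bases from the start, 5′ to 3′ on the gene's strand. Capitals mark E2F and CCAAT matches:
RRM2, chr2:10122579-10122768, plus strand: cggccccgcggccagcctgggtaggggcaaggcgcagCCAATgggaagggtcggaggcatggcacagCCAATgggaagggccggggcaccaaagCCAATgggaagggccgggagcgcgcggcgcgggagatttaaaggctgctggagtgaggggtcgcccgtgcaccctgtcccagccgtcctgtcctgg
GINS2, chr16:85688925-85689114, minus strand: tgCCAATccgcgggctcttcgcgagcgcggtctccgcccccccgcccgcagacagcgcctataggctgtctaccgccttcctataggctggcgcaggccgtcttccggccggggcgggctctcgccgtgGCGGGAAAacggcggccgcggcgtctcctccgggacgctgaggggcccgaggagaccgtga
RFC5, chr12:118016543-118016732, plus strand: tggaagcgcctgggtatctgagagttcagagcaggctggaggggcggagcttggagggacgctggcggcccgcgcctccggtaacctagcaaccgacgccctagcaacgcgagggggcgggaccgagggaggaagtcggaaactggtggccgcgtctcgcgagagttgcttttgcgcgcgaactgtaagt
CDC6, chr17:40287719-40287908, plus strand: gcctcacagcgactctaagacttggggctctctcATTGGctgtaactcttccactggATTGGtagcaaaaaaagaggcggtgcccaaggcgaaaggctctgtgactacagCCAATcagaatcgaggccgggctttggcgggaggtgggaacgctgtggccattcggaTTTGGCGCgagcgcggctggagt
The RRM2 stretch held 3 CCAAT matches and no E2F match, the GINS2 stretch 1 of each, the CDC6 stretch 3 CCAAT matches and 1 E2F match, and the RFC5 stretch none of either. The full RFC5 window held a CCAAT match outside the stretch, with its first base at -239 from the start. A match is a run of letters and not a measured binding site, and the absence of one says only that these letters are not in the sequence searched.

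**Figure D1:**
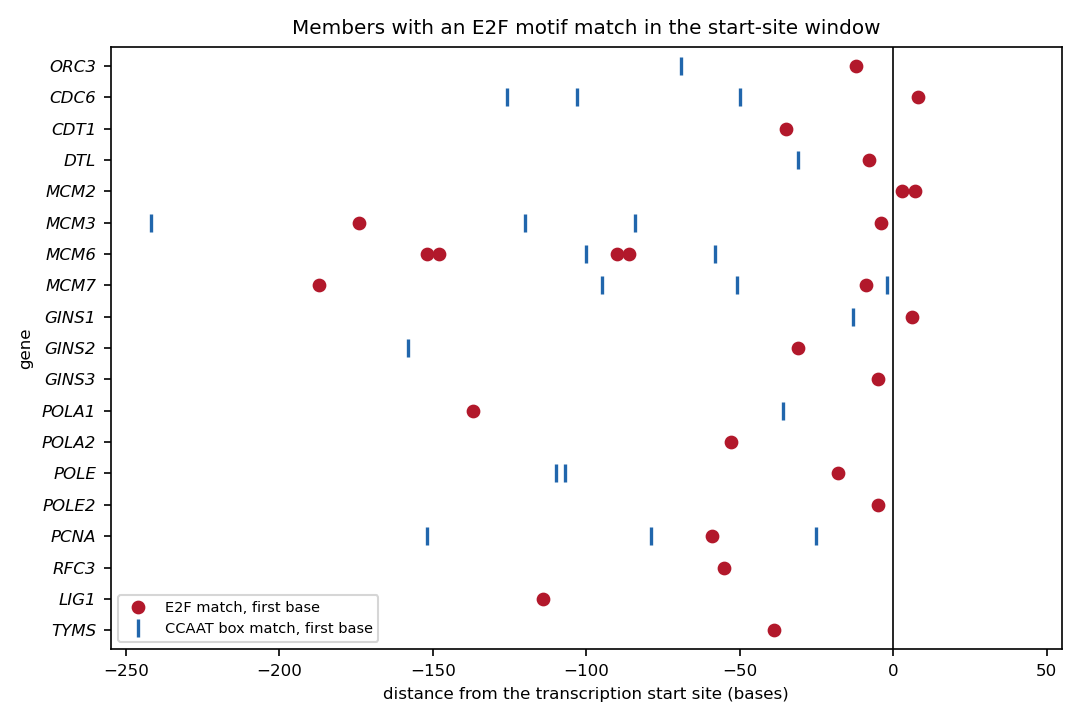
Position of E2F motif matches (circles) and CCAAT matches (ticks) in the 19 members with an E2F match, as the distance in bases of the first matched base from the transcription start. Of the 25 matches, 17 fall from 60 bases before to 10 bases after the start, a span not set in the plan.

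In SW48 the replication genes were lower with WRN guides, and the shift was larger with sgWRN2 than with sgWRN3. Summed over the 53 members, expression was 3729 and 3475 CPM in the sgWRN2 libraries, 4683 and 4745 CPM in the sgWRN3 libraries, and 5140 and 5228 CPM in the sgCh2-2 libraries. The sums did not overlap between any of these groups. Against the mean of the control libraries the sum fell by 30.5% with sgWRN2 and fell by 9.07% with sgWRN3. The median member had a log2 ratio to the control mean of -0.62 and -0.65 in the sgWRN2 libraries and of -0.16 and -0.14 in the sgWRN3 libraries, while the median over all genes was at most 0.0149 in size in each. From bulk RNA, fewer cells in S phase and less replication mRNA per cell cannot be told apart.

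**Figure D2:**
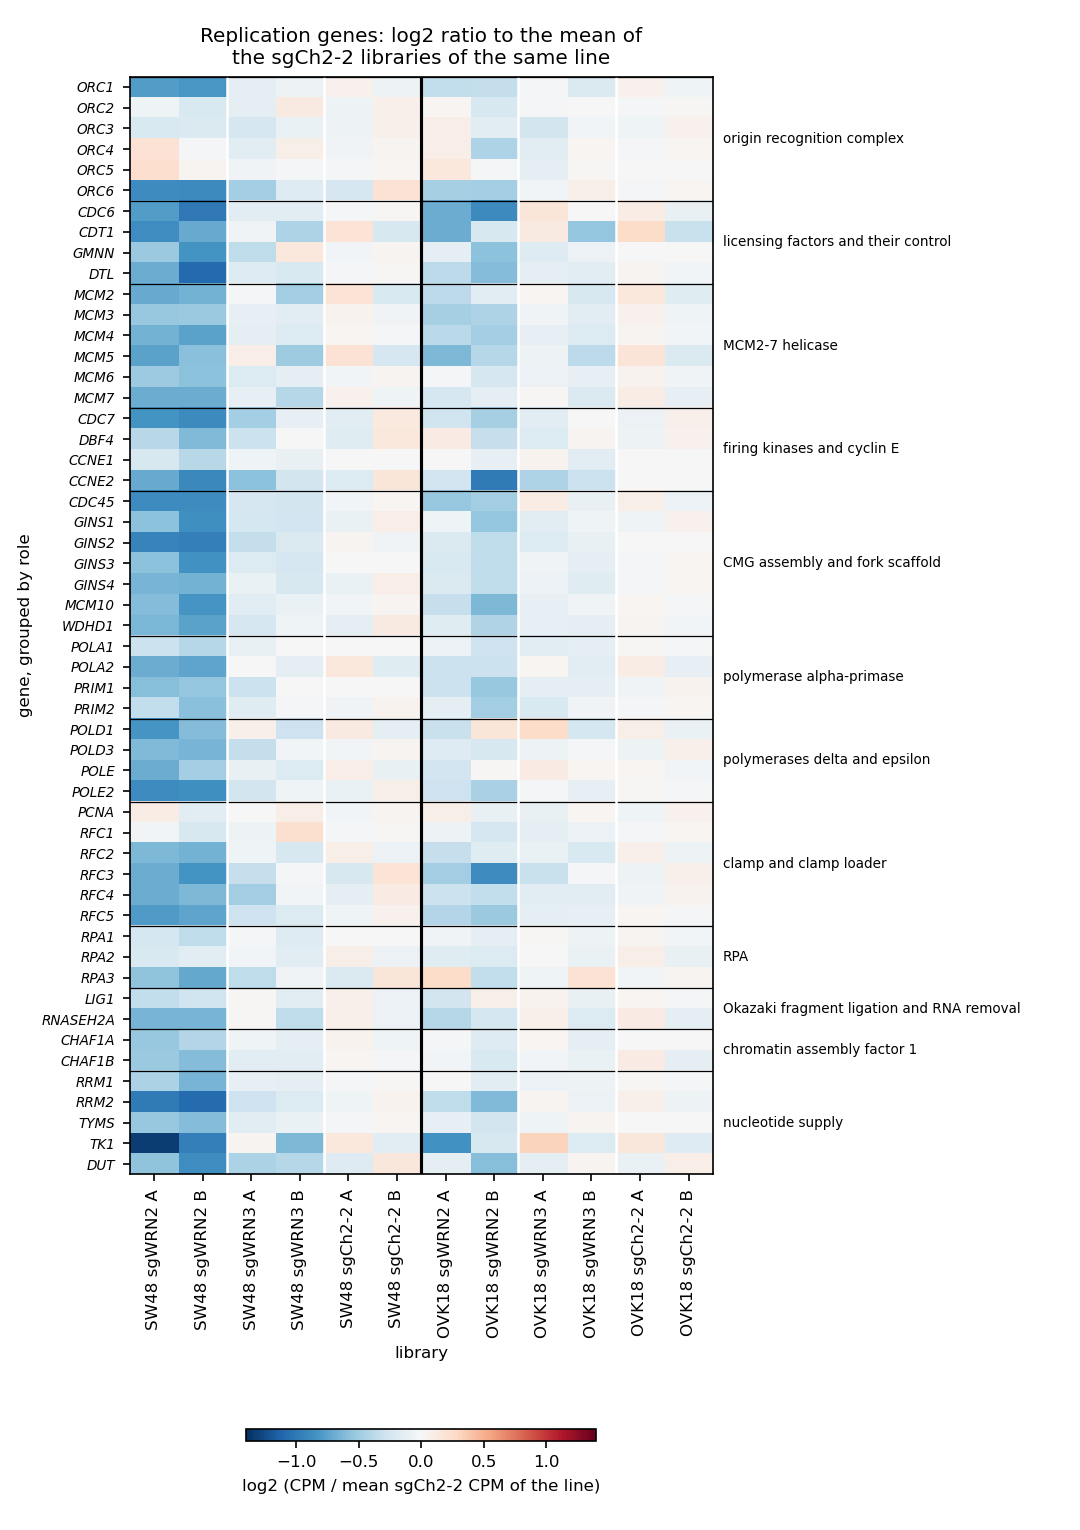
Log2 ratio of each member's CPM to the mean of the sgCh2-2 libraries of the same line, with genes by role down the page and the 12 libraries across it. The SW48 sgWRN2 columns are blue for nearly every gene, with PCNA, RFC1, ORC4 and ORC5 among the exceptions, and the sgWRN3 columns are paler in both lines.

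Testing used edgeR's quasi-likelihood test on all 12 libraries with Benjamini-Hochberg adjustment over the 14199 genes, and a gene was called when its adjusted p was below 0.05. Over both WRN guides in SW48, 8 members were called lower and 0 higher, against 0.613% of all tested genes called lower. At an unadjusted p below 0.05 there were 44 members, all lower, against 1113 of 14199 genes in either direction (7.84%). The median log2 fold change of the members was -0.41, with a range from -0.70 for TK1 to 0.05 for ORC5, and 50 of 53 were negative; the median over all tested genes was 0.00. The share of all tested genes called without a single library is not given here. The count of called members moved with single libraries. It was 0 without either SW48 sgCh2-2 library, 2 and 1 without SW48 sgWRN2 A and B, 1 and 5 without SW48 sgWRN3 A and B, 17 without OVK18 sgWRN2 B and 4 without OVK18 sgWRN3 B, whereas the members' median stayed between -0.45 and -0.39 in every setting run.

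Nucleotide supply held the strongest single result. RRM2, the S-phase small subunit of ribonucleotide reductase, had 126 and 119 CPM in SW48 sgWRN2, 206 and 220.0 CPM in SW48 sgWRN3, and 242 and 261 CPM in SW48 sgCh2-2 libraries. All 4 WRN-guide libraries lay below both controls, and the sgWRN2 pair lay lowest. Over both guides RRM2 fell by 0.64 on the log2 scale (SE 0.093, edgeR adjusted p = 0.00938). TK1, which salvages thymidine, had 18.3 and 23.7 CPM with sgWRN2, 47.1 and 29.8 CPM with sgWRN3, and 50.8 and 41.1 CPM with the control guide. Its sgWRN3 libraries were far apart and overlapped the controls, and its log2 fold change of -0.70 had an SE of 0.215 and an edgeR adjusted p of 0.270. All 5 genes of the group were negative (median -0.56), the others being RRM1, TYMS, which makes thymidylate, and DUT, which removes dUTP.

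Among the licensing factors, CDC6, the ATPase that loads MCM2-7 with ORC, had 54.8 and 46.8 CPM in SW48 sgWRN2, 84.2 and 83.9 CPM in SW48 sgWRN3, and 92.8 and 94.9 CPM in SW48 sgCh2-2 libraries. Both guides were below the controls, with a wide gap for sgWRN2 and a small one for sgWRN3. CDC6 fell by 0.52 (log2, SE 0.102, edgeR adjusted p = 0.0383). DTL, the receptor of the ubiquitin ligase that destroys CDT1 during S phase, had 44.7 and 33.9 CPM with sgWRN2, 63.6 and 62.1 CPM with sgWRN3, and 71.2 and 73.3 CPM with sgCh2-2. Again no WRN-guide library reached a control library, and DTL fell by 0.54 (log2, SE 0.110, edgeR adjusted p = 0.0467). CDT1 itself and its inhibitor GMNN had log2 fold changes of -0.51 and -0.38 and were not called.

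Of the helicase subunits, MCM4 was called. It had 258 and 242 CPM in SW48 sgWRN2, 373 and 356 CPM in SW48 sgWRN3, and 415 and 400.4 CPM in SW48 sgCh2-2 libraries, with no overlap between the guides or with the controls. MCM4 fell by 0.43 (log2, SE 0.076, edgeR adjusted p = 0.0218). MCM7 had 167 and 167 CPM with sgWRN2, 249.6 and 206 CPM with sgWRN3, and 283 and 259 CPM with sgCh2-2, and narrowly missed the threshold (log2 fold change -0.47, SE 0.103, edgeR adjusted p = 0.0595). Over MCM2 to MCM7 the log2 fold changes ran from -0.47 to -0.33, all 6 had an unadjusted p below 0.05, and 1 was called; the sgWRN3 libraries of MCM2 and MCM5 overlapped the controls.

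Of the proteins that assemble and brace the CMG helicase, GINS2 and CDC45 were called. GINS2, a subunit of the GINS ring, had 24.4 and 23.9 CPM in SW48 sgWRN2, 37.0 and 40.4 CPM in SW48 sgWRN3, and 47.9 and 45.1 CPM in SW48 sgCh2-2 libraries, and fell by 0.61 (log2, SE 0.097, edgeR adjusted p = 0.0156). CDC45 had 19.97 and 19.90 CPM with sgWRN2, 31.1 and 30.6 CPM with sgWRN3, and 35.8 and 37.5 CPM with sgCh2-2, and fell by 0.56 (log2, SE 0.103, edgeR adjusted p = 0.0281). For both genes the 3 guides formed 3 separate steps, lowest with sgWRN2. The other 5 genes of this group, GINS1, GINS3, GINS4, MCM10 and WDHD1, ran from -0.48 to -0.41 and were not called. CDC7, the kinase that fires licensed origins, had 25.4 and 24.4 CPM with sgWRN2, 32.7 and 42.03 CPM with sgWRN3, and 40.8 and 49.98 CPM with sgCh2-2. One of its sgWRN3 libraries lay inside the control range, and its log2 fold change of -0.57 (SE 0.126) had an edgeR adjusted p of 0.0662. Its partner DBF4 and the cyclins CCNE1 and CCNE2, which activate CDK2, were negative and not called (-0.32, -0.19 and -0.60 on the log2 scale).

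Polymerase, clamp loader and single-strand binding genes showed a wider range. POLE2, a small subunit of the leading-strand polymerase epsilon, had 20.2 and 20.5 CPM in SW48 sgWRN2, 31.1 and 35.6 CPM in SW48 sgWRN3, and 35.01 and 39.4 CPM in SW48 sgCh2-2 libraries. The sgWRN3 and control ranges overlapped slightly, and POLE2 fell by 0.51 (log2, SE 0.106, edgeR adjusted p = 0.0480). POLE, the catalytic subunit, had 51.7 and 60.4 CPM with sgWRN2, 77.9 and 73.3 CPM with sgWRN3, and 89.6 and 78.1 CPM with sgCh2-2, with a log2 fold change of -0.37 that was not called. POLD3, an accessory subunit of the lagging-strand polymerase delta, had 39.6 and 38.6 CPM with sgWRN2, 48.1 and 59.2 CPM with sgWRN3, and 59.3 and 62.2 CPM with sgCh2-2 (log2 fold change -0.41, not called). In each of these genes the sgWRN2 libraries were well below all others. POLA1, the catalytic subunit of the priming polymerase alpha, had 76.9 and 71.7 CPM with sgWRN2, 88.1 and 95.04 CPM with sgWRN3, and 95.3 and 94.2 CPM with sgCh2-2, a smaller difference (log2 fold change -0.20, not called).

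RFC5, a small subunit of the loader that opens PCNA, had 35.1 and 36.3 CPM in SW48 sgWRN2, 49.4 and 53.2 CPM in SW48 sgWRN3, and 57.9 and 63.3 CPM in SW48 sgCh2-2 libraries. No library of 1 guide overlapped another guide's, and RFC5 fell by 0.50 (log2, SE 0.091, edgeR adjusted p = 0.0275). RFC2, RFC3 and RFC4 had log2 fold changes from -0.46 to -0.40 and were not called. RFC1, the large subunit of the same loader, had 202 and 177 CPM with sgWRN2, 197 and 243 CPM with sgWRN3, and 206 and 209 CPM with sgCh2-2, and PCNA, the sliding clamp itself, had 389 and 328 CPM, 364 and 387 CPM, and 351 and 373 CPM. The groups of both genes overlapped. Their log2 fold changes were -0.02 (SE 0.098) for RFC1 and 0.02 (SE 0.096) for PCNA, and the sign of each changed with some settings, as given in the closing section. PCNA is known as a p53 target as well as an E2F target, and its window held an E2F match. The part of either in the PCNA level here was not tested.

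A pair of ORC genes also did not share the shift. ORC4, a subunit of the origin recognition complex, had 69.6 and 60.2 CPM in SW48 sgWRN2, 54.5 and 64.0 CPM in SW48 sgWRN3, and 58.8 and 62.5 CPM in SW48 sgCh2-2 libraries, and ORC5, another subunit, had 71.6 and 62.8 CPM, 58.9 and 60.0 CPM, and 59.9 and 62.1 CPM. ORC5 was the 1 member whose sgWRN2 libraries both lay above both controls, against 21.6% of tested genes. The gap was narrow, 62.8 against 62.1 CPM, and these groups overlapped in FPKM, which also scales by transcript length. Its log2 fold change with sgWRN2 of 0.14 (SE 0.109) was not called (edgeR adjusted p = 0.676). The ORC group was split: ORC1 and ORC6 had log2 fold changes of -0.45 and -0.60, ORC2 to ORC5 ran from -0.18 to 0.05, and none was called. RPA1, the large subunit of the single-strand binding complex, had 167 and 155 CPM with sgWRN2, 196 and 175 CPM with sgWRN3, and 197 and 199 CPM with sgCh2-2, below the controls in all 4 WRN-guide libraries but by a small step for 1 of them (log2 fold change -0.20, not called). LIG1, which seals Okazaki fragments, had 41.8 and 43.6 CPM, 53.8 and 47.9 CPM, and 55.8 and 50.3 CPM in the same order of guides, with overlap between sgWRN3 and the control (log2 fold change -0.19, not called). CHAF1A, the large subunit of the chaperone that deposits histones behind the fork, had 44.4 and 48.1 CPM with sgWRN2, 61.5 and 58.5 CPM with sgWRN3, and 66.5 and 61.6 CPM with sgCh2-2. All its WRN-guide libraries were lower in CPM, 1 of them by a narrow gap (61.5 against 61.6 CPM), and its log2 fold change of -0.28 was not called. In FPKM the sgWRN3 and control libraries overlapped for both CHAF1A and RPA1.

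**Figure D3:**
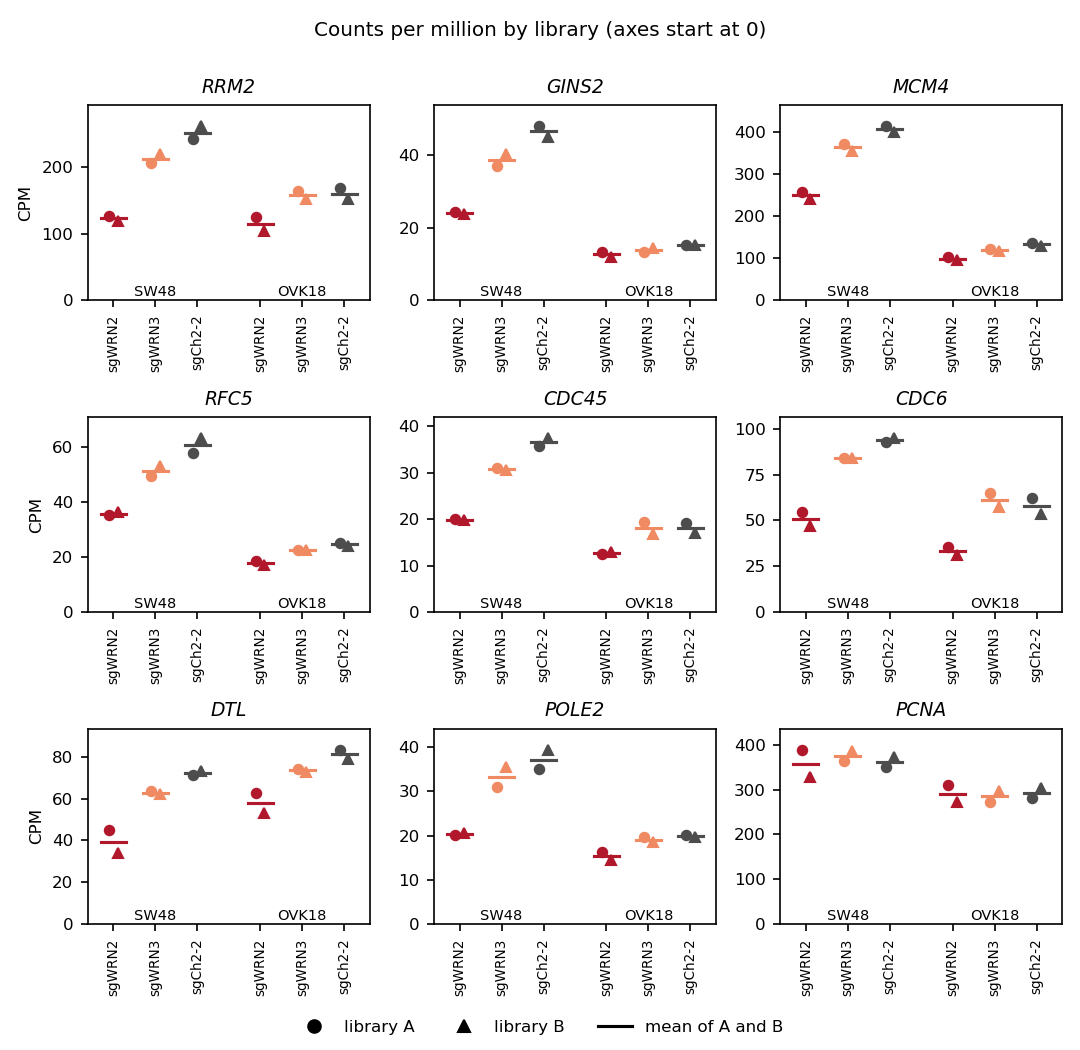
CPM by library for the 8 members called lower over both WRN guides in SW48 and for PCNA, with groups across each panel, circles for library A, triangles for library B, bars for their mean and every axis starting at 0. For SW48, in the first 8 panels, the libraries step up from sgWRN2 through sgWRN3 to sgCh2-2 with little overlap, while the PCNA groups overlap in both lines.

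All 4 WRN-guide libraries of SW48 lay below both control libraries for 25 of the 53 members, against 5.33% of all tested genes. No member had all 4 above, against 6.01% of all tested genes. By guide, both sgWRN2 libraries lay below both controls for 49 members against 17.2% of tested genes, and both sgWRN3 libraries for 25 members against 10.6%. Exon bases of 18 members are shared with another protein-coding gene in GENCODE 29, in 13 of them on the opposite strand, among them GINS2 with GSE1, RFC5 with WSB2, MCM7 with AP4M1, RPA1 with SMYD4, CHAF1A with UBXN6, TYMS with ENOSF1 and ORC4 with ACVR2A and MBD5. The sources used here do not state whether counting used strand, so reads of such pairs cannot be told apart, and 8 members have named pseudogenes that could take or lend reads (8 for DUT, 3 each for PCNA, RRM2 and RPA2, 2 for TYMS, and 1 each for DBF4, RFC3 and RFC5).

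The 2 WRN guides were next set against the shared SW48 controls one at a time. With sgWRN2, 32 members were called lower and 0 higher, against 1.95% of tested genes called lower, and the median log2 fold change was -0.66. With sgWRN3, 0 members were called by edgeR, against 0% of tested genes; 4 members had an unadjusted p below 0.05, against 262 of 14199 genes, and DESeq2 and limma-voom also called 0. A fit without the 4 sgWRN2 libraries and with the letters as a replicate block called 5 members lower. They were DUT, CCNE2, RRM2, MCM7 and MCM2 (edgeR adjusted p from 0.0102 to 0.0482). The labels do not say that the letters pair libraries, and the share of tested genes called in that fit is not given here. In the fit of all 12 libraries the sgWRN3 median was -0.16, with 50 of 53 members negative. Every member of the CMG assembly and nucleotide supply groups was called with sgWRN2 (7 of 7 and 5 of 5), and so were both chromatin assembly factor genes. Called too were 4 of 6 MCM genes, 4 of 6 clamp and clamp loader genes, 2 of 4 of polymerase alpha-primase, 2 of 4 licensing genes, 2 of 6 ORC genes and 1 of 4 firing genes. Of polymerases delta and epsilon, 3 of the 4 genes among the members were called, while POLD2, POLD4, POLE3 and POLE4 lie outside the members. None of the 3 RPA genes was called, and neither was LIG1 nor RNASEH2A, which removes RNA primers. The largest falls with sgWRN2 were 1.13 for TK1 (SE 0.260, edgeR adjusted p = 0.0352), 1.03 for RRM2 (SE 0.111, edgeR adjusted p = 0.000461) and 0.95 for GINS2 (SE 0.117, edgeR adjusted p = 0.000938) on the log2 scale. Counts without a single library follow without the share of tested genes called in the same fit, and show only how the calls moved. The sgWRN2 count was 13 and 9 without SW48 sgWRN2 A and B and 18 without SW48 sgCh2-2 B, and 25 to 36 without any other single library.

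Compared directly, 11 members were lower with sgWRN2 than with sgWRN3 in SW48 and 0 higher, against 0.655% of tested genes called lower; the median difference was -0.45. RRM2 fell by 0.79 (log2, SE 0.110, edgeR adjusted p = 0.00716), CDC6 by 0.73 (SE 0.122, edgeR adjusted p = 0.0168) and POLE2 by 0.71 (SE 0.128, edgeR adjusted p = 0.0222). MCM4, GINS2, ORC1, DTL, CDC45, TYMS, RFC5 and MCM10 were the others called. How the count of 11 moved without single libraries follows, without the share of tested genes called in those fits. This count was 0 without SW48 sgWRN2 A, sgWRN2 B or sgWRN3 B, 3 without SW48 sgWRN3 A, 7 without OVK18 sgWRN3 B and 17 without OVK18 sgWRN2 B. Member windows with and without an E2F match had like medians with sgWRN2, -0.70 over 19 genes and -0.65 over 27 genes, given here as a description without a test.

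**Figure D4:**
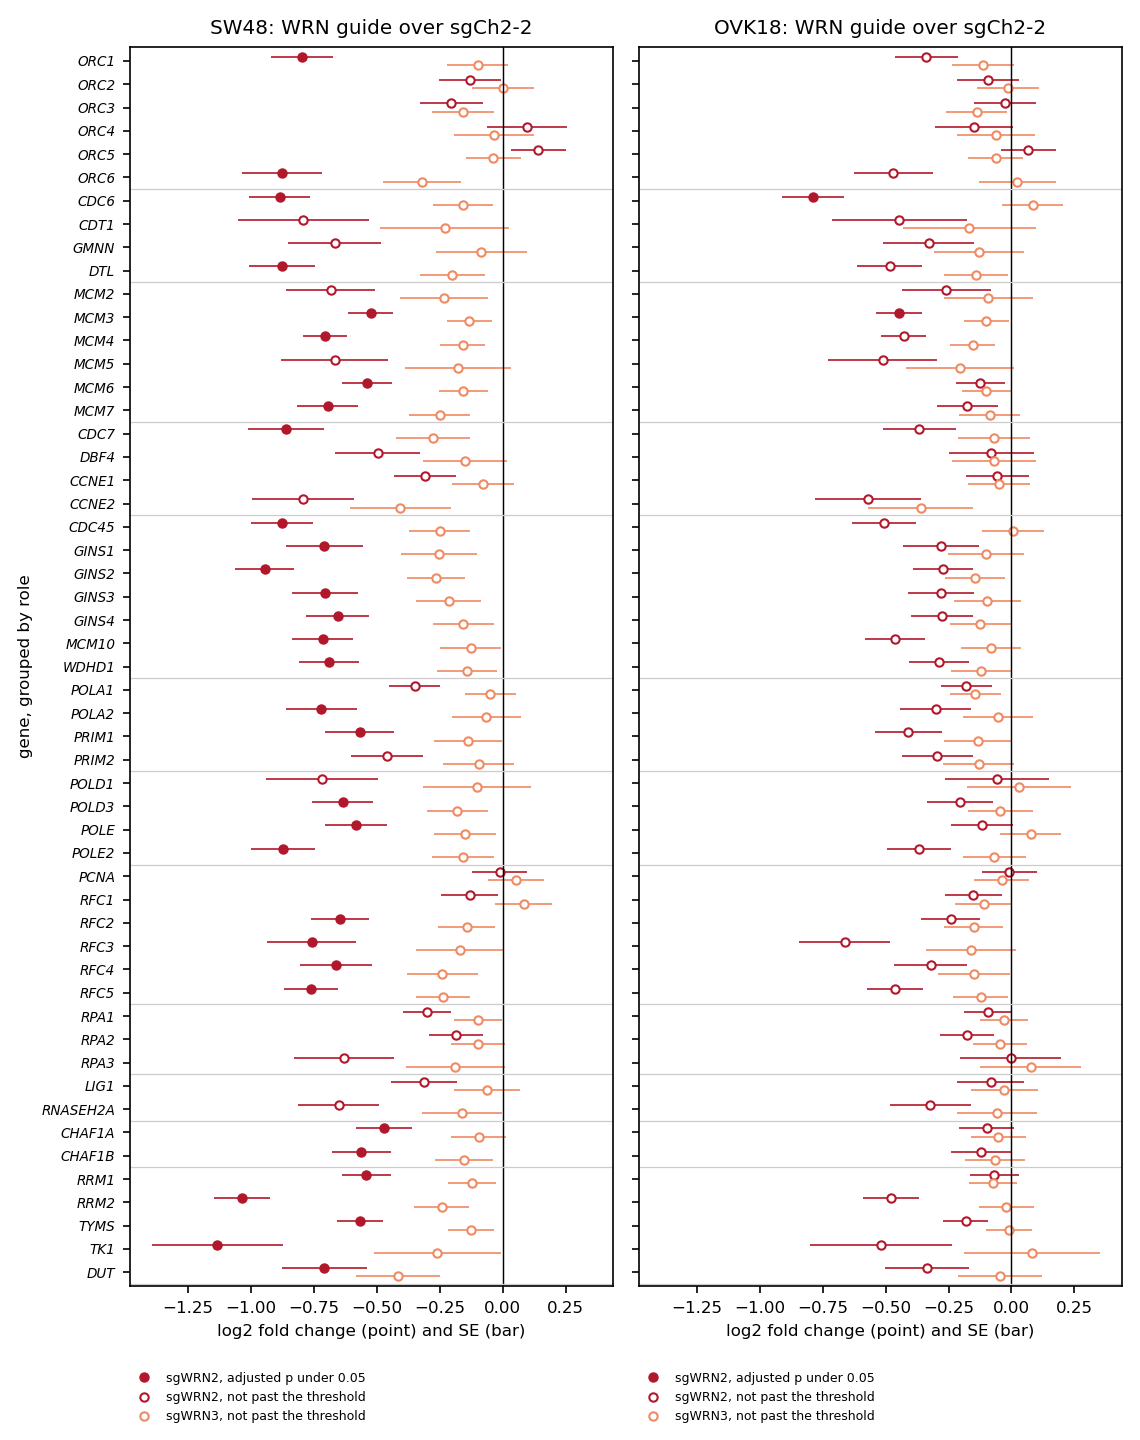
Log2 fold change of every member against the sgCh2-2 libraries of its line, for sgWRN2 and sgWRN3, with bars of 1 SE and filled points for an adjusted p under 0.05. Filled points are 32 for sgWRN2 in SW48 and 2 for sgWRN2 in OVK18, all left of 0, and none for sgWRN3; both panels share the same sgCh2-2 libraries between their guides.

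OVK18 cells showed a smaller shift in the same direction, with few genes past the threshold. The members summed to 2925 and 2634 CPM in the sgWRN2 libraries, 3103 and 3086 CPM in the sgWRN3 libraries, and 3287 and 3209 CPM in the sgCh2-2 libraries, so that the sum fell by 14.4% with sgWRN2 and fell by 4.73% with sgWRN3. The 3 groups did not overlap. Over both guides, edgeR called 0 members, against 0.00704% of tested genes called lower. At an unadjusted p below 0.05 there were 11 members, against 573 of 14199 genes (4.04%); limma-voom also called 0 and DESeq2 called 1, MCM4 (DESeq2 adjusted p = 0.0489; 0.0489 to 1 over the 23 alternatives run). The members' median was -0.19, from -0.47 for CCNE2 to 0.04 for RPA3, with 51 of 53 negative, and 18 members had all 4 WRN-guide libraries below both controls, against 3.84% of tested genes.

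MCM4, MCM3, CDC6 and RFC5 had the smallest p-values in OVK18. MCM4 had 102 and 95.6 CPM in OVK18 sgWRN2, 123 and 116 CPM in OVK18 sgWRN3, and 137 and 129 CPM in OVK18 sgCh2-2 libraries (log2 fold change -0.29, SE 0.077, edgeR adjusted p = 0.875). MCM3, another subunit of the same helicase, had 81.4 and 83.0 CPM with sgWRN2, 108 and 100.6 CPM with sgWRN3, and 117 and 107 CPM with sgCh2-2. RFC5 had 18.5 and 17.1 CPM, 22.5 and 22.7 CPM, and 25.0 and 24.1 CPM in the same order of guides. MCM4 and RFC5 were below the controls in every WRN-guide library, while 1 sgWRN3 library of MCM3 lay inside the control range. CDC6 differed in pattern: it had 35.6 and 31.1 CPM with sgWRN2, 65.1 and 57.4 CPM with sgWRN3, and 61.9 and 53.7 CPM with sgCh2-2, so that the sgWRN2 libraries stood alone and the sgWRN3 libraries overlapped the controls.

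Taken by guide against the shared OVK18 controls, sgWRN2 gave 2 members called lower and 0 higher, against 0.261% of tested genes called lower, with a median of -0.28. They were CDC6, which fell by 0.79 (log2, SE 0.123, edgeR adjusted p = 0.0112), and MCM3, which fell by 0.45 (SE 0.090, edgeR adjusted p = 0.0448). How the count of 2 moved without single libraries follows, without the share of tested genes called in those fits. This count was 0 without OVK18 sgWRN2 B or OVK18 sgCh2-2 A, 2 without OVK18 sgWRN2 A, and 1 without any other library. With sgWRN3, edgeR called 0 members against 0% of tested genes, 0 members had an unadjusted p below 0.05, DESeq2 and limma-voom called 0, and the median was -0.07. Both sgWRN2 libraries lay below both controls for 37 members against 21.4% of tested genes, and both sgWRN3 libraries for 20 members against 10.5%. Between the guides, 1 member was lower with sgWRN2 than with sgWRN3, against 0.31% of tested genes called lower. It was CDC6, which fell by 0.87 (log2, SE 0.123, edgeR adjusted p = 0.00819), and the call was lost without OVK18 sgWRN2 B or OVK18 sgWRN3 A.

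The 2 lines were compared by the difference between their both-guide effects. No member was called by edgeR, against 0.0282% of tested genes called in either direction; 6 members had an unadjusted p below 0.05, against 391 of 14199 genes, and DESeq2 and limma-voom also called 0. The member differences, SW48 minus OVK18, had a median of -0.21 and were negative for 49 of 53. Those of smallest p were RRM2 (-0.39, SE 0.134), GINS2 (-0.40, SE 0.143), MCM7 (-0.34, SE 0.148) and POLE (-0.35, SE 0.150), each with an edgeR adjusted p of 0.9999. In OVK18, RRM2 had 125 and 104 CPM with sgWRN2, 164 and 152 CPM with sgWRN3, and 168 and 152 CPM with sgCh2-2, with the sgWRN2 libraries lowest and the other groups overlapping. GINS2 had 13.3 and 12.001 CPM, 13.4 and 14.3 CPM, and 15.3 and 15.3 CPM in that order, all WRN-guide libraries below the controls. MCM7 had 109.8 and 118 CPM, 130.4 and 112 CPM, and 138 and 119 CPM, and POLE had 65.2 and 79.2 CPM, 85.0 and 80.0 CPM, and 80.0 and 76.4 CPM, with overlap between groups in both, except that both MCM7 libraries of sgWRN2 lay below the controls.

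Without a WRN guide, most replication genes were higher in SW48 than in OVK18. In sgCh2-2 cells, 40 members were called higher in SW48 and 2 lower, against 33.9% of tested genes called higher and 34.7% called lower; the median log2 fold change was 0.70. POLD3 had 59.3 and 62.2 CPM in SW48 and 12.6 and 14.0 CPM in OVK18 (log2 fold change 2.19, SE 0.128, edgeR adjusted p = 1.1e-08). TK1 followed, with 50.8 and 41.1 CPM in SW48 and 11.5 and 9.16 CPM in OVK18 (2.16, SE 0.267, edgeR adjusted p = 1.35e-05). MCM4 had 415 and 400.4 CPM in SW48 and 137 and 129 CPM in OVK18 (1.61, SE 0.091, edgeR adjusted p = 7.49e-09), and RFC2, another clamp loader subunit, had 96.5 and 85.9 CPM in SW48 and 31.3 and 28.5 CPM in OVK18 (1.61, SE 0.117, edgeR adjusted p = 8.53e-08). In these 4 genes the lines were separated by much more than the spread between libraries. All 6 MCM2-7 genes and all 6 clamp and clamp loader genes were higher in SW48. The members called lower in SW48 were ORC4, with 58.8 and 62.5 CPM in SW48 and 98.8 and 102 CPM in OVK18 (-0.73, SE 0.157, edgeR adjusted p = 0.00127), and CDC7 (-0.41, SE 0.145, edgeR adjusted p = 0.0229). DTL, POLD1 and PRIM1 also had negative log2 fold changes (-0.17, -0.30 and -0.02) and were not called. The lines differ in origin, and their markers differ as given above, so these are differences between 2 lines and not between tissues.

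Levels of different genes were set side by side per length, from the deposited Cufflinks table, whose values were read here as FPKM, a fragment count scaled by transcript length and library depth, because the files do not name the unit. In sgCh2-2 cells PCNA was highest in both lines, at 246 ± 3.15 FPKM in SW48 and 196 ± 5.63 FPKM in OVK18 (SD, n = 2 each), followed by TYMS at 90.6 ± 0.453 FPKM in SW48 and 81.7 ± 1.88 FPKM in OVK18. POLD1, the catalytic subunit of polymerase delta, was lowest in SW48 at 3.97 ± 0.859 FPKM, and POLD3 was lowest in OVK18 at 2.63 ± 0.113 FPKM. The 6 MCM2-7 products form a ring with 1 copy of each, yet their mRNA levels were unequal. In SW48 their order was MCM7 at 72.5 ± 6.89 FPKM, MCM4 at 66.5 ± 4.39 FPKM, MCM3 at 57.5 ± 4.40 FPKM, MCM6 at 52.4 ± 0.716 FPKM, MCM2 at 28.5 ± 6.72 FPKM and MCM5 at 18.4 ± 4.92 FPKM. Of these, MCM7 and MCM4 overlapped, while MCM4, MCM3, MCM6, MCM2 and MCM5 each lay apart from the next in both libraries. In OVK18 MCM7 was again highest (34.0 ± 4.43 FPKM) and MCM5 lowest (8.21 ± 2.04 FPKM), with MCM2 at 14.1 ± 2.62 FPKM.

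**Figure D5:**
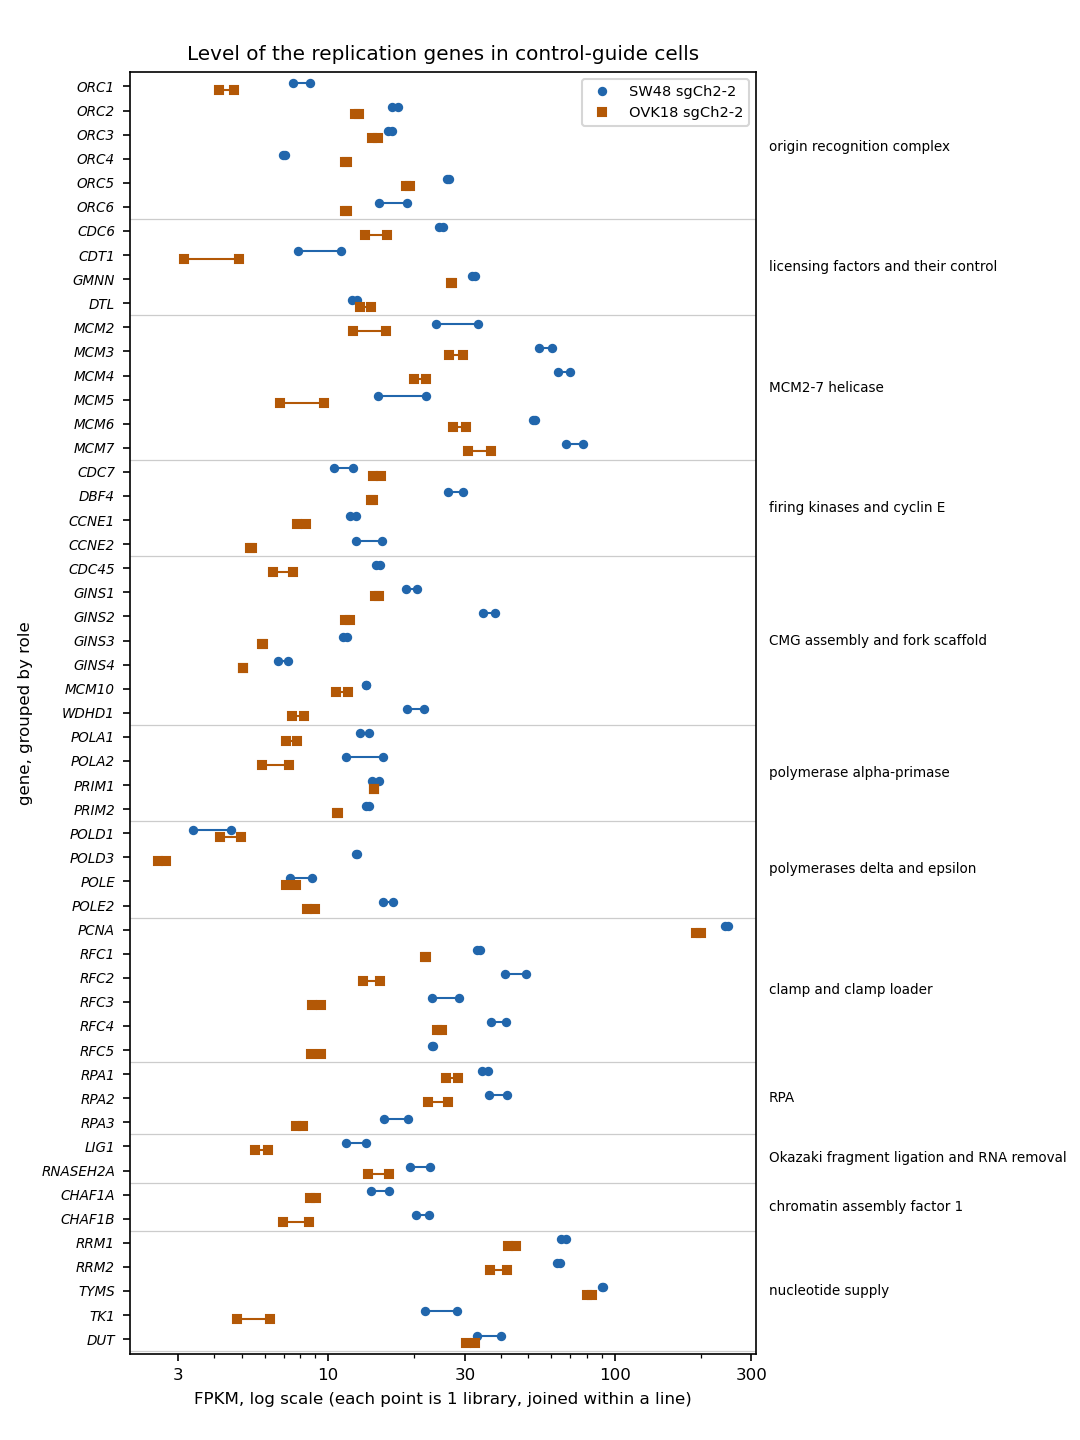
FPKM, on a log scale, of every member in the sgCh2-2 libraries of SW48 (circles) and OVK18 (squares), with the 2 libraries of a line joined. Most circles lie right of the squares, PCNA is highest at 246 FPKM in SW48 and 196 FPKM in OVK18, and ORC4, CDC7, DTL and POLD1 are among those whose means lie the other way.

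Other genes of the same pathway were read from a list of 40 replication genes outside the members, of which 39 were in the table. Like the members, this list was chosen with earlier results of these data known, so it gives no independent support. Over both guides in SW48, 2 of the 39 were called lower and 0 higher, against 0.613% of tested genes called lower. Of the 39, 34 were negative, against 46.8% of tested genes, and the median log2 fold change was -0.30. TIMELESS, a fork protection protein and 1 of those called, had 39.1 and 42.4 CPM in SW48 sgWRN2, 59.0 and 62.1 CPM in SW48 sgWRN3, and 70.7 and 67.9 CPM in SW48 sgCh2-2 libraries. Every WRN-guide library lay below both controls, and TIMELESS fell by 0.48 (log2, SE 0.093, edgeR adjusted p = 0.0371). With sgWRN2 alone 12 of the 39 were called lower and 0 higher, against 1.95% of tested genes called lower. Among those lower were FEN1, which trims Okazaki flaps, CLSPN, the checkpoint mediator claspin, and TICRR, which helps fire origins. With that guide 34 were negative and 5 positive. RRM2B, POLD4 and, by a narrow gap, TOP1 had both sgWRN2 libraries above both controls, against 21.6% of tested genes. RRM2B, a ribonucleotide reductase subunit, had 215 and 180 CPM with sgWRN2 and 122 and 162 CPM with sgCh2-2. POLD2 libraries overlapped the controls, and POLE3 and POLE4 lay below both in all 4 WRN-guide libraries. In OVK18, 0 of 39 were called by edgeR over both guides, with a median of -0.15 and 7 at an unadjusted p below 0.05.

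Among 13 genes for E2F factors, their DP partners and pocket proteins, 2 were called lower over both guides in SW48, against 0.613% of tested genes: E2F2 (log2 fold change -0.64, edgeR adjusted p = 0.0179) and E2F8, a repressor of the family (-0.67, edgeR adjusted p = 0.0156). RB1 had a log2 fold change of 0.05 and was not called. The p53 targets CDKN1A and MDM2 were higher with the WRN guides in SW48. CDKN1A, a CDK inhibitor, had 945 and 1008 CPM in SW48 sgWRN2, 655 and 519 CPM in SW48 sgWRN3, and 412 and 326 CPM in SW48 sgCh2-2 libraries, and MDM2, the ubiquitin ligase for p53, had 1084 and 858 CPM, 642 and 689 CPM, and 472 and 480 CPM. In both genes the 3 SW48 groups were separate, highest with sgWRN2, and over both guides CDKN1A rose by 1.04 and MDM2 by 0.76 on the log2 scale (edgeR adjusted p = 0.00507 for CDKN1A and 0.0218 for MDM2). In OVK18, CDKN1A had 253 and 295 CPM with sgWRN2, 187 and 172 CPM with sgWRN3, and 179 and 173 CPM with sgCh2-2, where only the sgWRN2 libraries stood apart. MDM2 had 1015 and 768 CPM with sgWRN2, 729 and 858 CPM with sgWRN3, and 735 and 833 CPM with sgCh2-2 in OVK18, and the groups overlapped. The part of CDKN1A or of the E2F factors in the lower replication genes was not tested.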

How the data were processed

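RNA from 12 libraries was read from deposited tables. Per the submitters' processing notes, bcl2fastq 2.18, STAR 2.5, Cufflinks 2.2.1 and genome build hg19 were used, with roles and settings not given in the sources used here. The authors' deposited count table gives whole read counts per gene. The authors' deposited FPKM table is read as FPKM from its values and from the naming of Cufflinks in those notes, since its header gives no unit.

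After 92 spike-in features, all with 0 counts, were dropped, 14199 of 25343 genes passed edgeR's filterByExpr, and 28 rows carried symbols that look like dates. Counts were scaled by TMM and fitted with edgeR 4.0.16 (quasi-likelihood, robust, 6 group terms, 6 residual degrees of freedom, R 4.3.3). P-values were adjusted by Benjamini-Hochberg over all tested genes, with a threshold of 0.05. CPM values use TMM library sizes and levels between genes use FPKM. The steps were tested on simulated counts with known changes. DESeq2 1.42.0, limma 3.58.1 (voom, and log2 of FPKM plus 1 or 0.1), other scalings and filters, a replicate block and the removal of each library were alternatives. Both libraries of every group differed by more than sampling noise, with a mean chi-square per gene of 8.70 or more.

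The members and lists were chosen with earlier results of these data known. Genes given with values per library were the 10, 4 and 4 members of smallest p over both guides in SW48, in OVK18 and in their difference, the 4 largest differences between the control groups, the 4 highest fold changes in SW48, the highest member of any role left, and called genes outside the list, of which 1 is not reported here. Other members are given by range or as examples. Promoter letters are from RefSeq on GRCh38.p14, not the counting build. The lowest member count in a library was 162, and how far counting depth limits precision was not tested.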

Additional observations from a re-analysis of the deposited data

How the results depend on the processing

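The direction of the members' median held in all 233 recomputed medians, and no member was called higher in any of 189 alternative settings of the WRN-guide and guide comparisons, while counts of called members depended on the setting. Over both guides in SW48 the count of 8 became 14 with library size alone, 21 with no filter, 13 with a mean of at least 5 CPM, 25 with DESeq2, 1 with only the 6 libraries of the line, and 16 and 15 with limma on log2 of FPKM plus 1 and plus 0.1 at a mean of at least 1 FPKM. For sgWRN2 against sgWRN3 in SW48 the count of 11 became 22 with no filter, 17 at 5 CPM, 26 with DESeq2 and 2 with the 6 libraries of the line. For OVK18 sgWRN2 the count of 2 became 1 with RLE scaling, 4 with library size alone, 9 with DESeq2, 0 with the 6 libraries of the line and 1 in each of the 3 FPKM settings. DESeq2 called 1 member over both guides in OVK18. For sgWRN2 against sgWRN3 in OVK18 the count of 1 became 2 with library size alone, 2 with no filter, 4 with DESeq2 and 0 with the 6 libraries of the line. The cause of these shifts was not tested. Counts in this section are given without the share of all tested genes called in the same setting. They show how the calls moved with the setting, not how the members stood against other genes.

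Leaving out single libraries gave 0 to 17 called members over both guides in SW48, 9 to 36 for SW48 sgWRN2, 0 to 17 for sgWRN2 against sgWRN3 in SW48, 0 to 2 for OVK18 sgWRN2, 0 to 1 for sgWRN2 against sgWRN3 in OVK18 and 37 to 43 for the controls; where an arm kept 1 library, it was assumed to vary like the other groups. Among the members named with values over both guides, calls were lost in 75 gene and setting pairs in SW48 and gained in 19, and 1 was gained in OVK18. Fold changes near 0 changed sign. In SW48, limma on log2 of FPKM plus 1, with and without the filter, gave -0.0257 for ORC4, -0.0127 for ORC5 and -0.0439 for PCNA, and with 0.1 gave -0.0294, -0.0132 and -0.0441. Leaving out libraries gave -0.0309 to 0.0775 for ORC4, -0.0471 to 0.0725 for PCNA and -0.105 to 0.0366 for RFC1 in SW48, and in OVK18 -0.140 to 0.0267 for LIG1, -0.247 to 0.0135 for ORC4, -0.0370 to 0.0459 for ORC5, -0.0779 to 0.0417 for PCNA and -0.0933 to 0.0495 for POLE.

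The labels do not say that the letters A and B pair libraries. Over all genes, the A minus B differences of the sgWRN3 and sgCh2-2 groups of both lines correlated at 0.331 to 0.413 (0.770 to 0.848 over the members), and those of both sgWRN2 groups with each other at 0.351 (0.782 over the members). The sgWRN2 groups against sgCh2-2 of their line gave -0.0890 in SW48 and -0.105 in OVK18 (-0.541 and -0.673 over the members). The letters thus went with shared differences within each of these sets of groups but not across them; what they stand for was not tested. A replicate block per line gave 1 called member over both guides in SW48, 25 for SW48 sgWRN2, 2 for sgWRN2 against sgWRN3 in SW48 and 1 for OVK18 sgWRN2. Without the 4 sgWRN2 libraries, the replicate block gave 5 members for SW48 sgWRN3, namely MCM2, DUT, RRM2, MCM7 and CCNE2. With the letters of OVK18 sgWRN2 crossed, an alternative chosen after seeing the data, the replicate block gave 6 members for OVK18 sgWRN2.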
